A study of Homo sapiens with 22 samples.

Results

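MHC class II molecules show peptides from taken-up material to helper T cells, and 8 genes of this pathway were described in renal cancer cell lines. They are HLA-DRA, HLA-DPA1 and HLA-DPB1, which encode chains of the peptide-binding molecules, HLA-DMA, HLA-DMB and HLA-DOA, which encode chains of the peptide editors, CD74, the invariant chain, and CIITA, the class II transactivator. They were chosen by symbol, and all 8 were among the 25343 genes listed for each library.

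Polyadenylated RNA of cultured cells was sequenced in 22 libraries of 7 groups, from a study of enhancers in metastatic cancer. The parental line 786-O, which comes from a clear cell kidney tumour and lacks working VHL, gave 2 libraries, and its metastatic derivative 786-M1A gave 2. OS-LM1 gave 2 and is also metastatic, but not derived from 786-O. These relations are background from earlier work, since the labels call each only a renal cancer cell line. The other 16 libraries were of 786-M1A cells with CRISPRi, a method that silences a DNA site by bringing a repressor fused to uncutting Cas9 to it with a guide RNA. SC, the non-targeting guide, had 6 libraries, iMAE-1.1 had 4, iMAE-1.2 had 4 and iMAE-126 had 2. The labels do not say which element each iMAE guide binds, whether a line or transduced culture is 1 clone, or whether replicates were separate cultures. The p-values therefore reflect only how far libraries of a group differ, and that spread may be technical.

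Library totals ran from 9062605 to 52706490 expected counts, the read numbers that RSEM assigns to genes. Levels are in CPM, counts relative to a library total that was scaled by its TMM factor, and genes are compared with each other only in TPM, which also corrects for length. By the average length of the genes behind their reads, the CRISPRi libraries split into 2 sets, for which the labels give no name. Set A, with 3528 to 3716 bases, held both iMAE-126 libraries with SC replicates 1 and 2, and set B, with 3264 to 3395 bases, held the other 12. CXCR4, a gene that earlier work on these lines tied to metastasis, lay between 0.586 and 1.52 CPM in SC and at or under 0.314 CPM in the 10 libraries with an iMAE guide. The renal markers PAX8, VIM, KRT8 and KRT18 were present in all 22 libraries, while CA9 was at or under 0.165 CPM outside OS-LM1. Of 20 markers of antigen-presenting and other immune cells, 2 to 4 averaged 1 CPM or more in each group. Lysozyme (LYZ) was at 2.17 to 12.9 CPM over all libraries, CSF1R at 0.367 to 3.36 CPM, ITGAX at 0.406 to 3.32 CPM and PTPRC (CD45) at 0 to 0.61 CPM, and FCER1A, TYROBP and CD3E had 0 counts in all.

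An alpha and a beta chain form each class II molecule in the endoplasmic reticulum, where the invariant chain CD74 fills the groove and directs the complex to endosomes. Proteases such as cathepsin S (CTSS) trim CD74 there, HLA-DM removes the last fragment and lets peptides bind, and HLA-DO restrains HLA-DM. CIITA does not bind DNA itself. It is recruited by factors on the X and Y boxes of these promoters (RFX5, RFXAP and RFXANK, CREB1 and NF-Y) and is induced by interferon gamma, also in cells that are not immune cells.

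Because these factors act through promoter words, the bases upstream of the members' start sites are shown. RefSeq entries on GRCh38.p14 matched 6 of the 8 members, HLA-DMA, HLA-DMB, HLA-DOA, HLA-DPA1, HLA-DPB1 and CD74. Each line gives 150 bases, from 160 to 11 bases upstream of the start site, 5′ to 3′ on the strand of the gene. Capitals mark an X-box-like word, CCNAGNNAC on the strand of the gene, and the core of the Y box, CCAAT on either strand (ATTGG where it lies on the other). Of the 2 HLA-DPA1 starts in RefSeq, the one nearer to HLA-DPB1 is shown. The windows are chr5:150412921-150413070 (minus strand) for CD74, chr6:32953108-32953257 (minus) for HLA-DMA, chr6:32941039-32941188 (minus) for HLA-DMB, chr6:33009602-33009751 (minus) for HLA-DOA, chr6:33073660-33073809 (minus) for HLA-DPA1 and chr6:33075830-33075979 (plus) for HLA-DPB1.
CD74: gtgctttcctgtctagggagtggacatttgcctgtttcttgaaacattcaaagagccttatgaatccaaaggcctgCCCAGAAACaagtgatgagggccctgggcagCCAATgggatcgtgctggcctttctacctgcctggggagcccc
HLA-DMA: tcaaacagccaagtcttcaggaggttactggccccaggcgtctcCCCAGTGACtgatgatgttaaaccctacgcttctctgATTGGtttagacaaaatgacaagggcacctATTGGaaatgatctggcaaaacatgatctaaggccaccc
HLA-DMB: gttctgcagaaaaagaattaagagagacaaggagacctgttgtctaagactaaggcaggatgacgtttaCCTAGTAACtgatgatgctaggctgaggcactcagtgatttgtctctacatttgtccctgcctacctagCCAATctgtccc
HLA-DOA: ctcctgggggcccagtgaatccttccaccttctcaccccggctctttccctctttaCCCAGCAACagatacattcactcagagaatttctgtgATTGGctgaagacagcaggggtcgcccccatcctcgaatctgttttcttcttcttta
HLA-DPA1: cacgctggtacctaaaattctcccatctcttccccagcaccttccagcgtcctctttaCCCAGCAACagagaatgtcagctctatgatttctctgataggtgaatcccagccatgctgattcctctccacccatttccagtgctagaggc
HLA-DPB1: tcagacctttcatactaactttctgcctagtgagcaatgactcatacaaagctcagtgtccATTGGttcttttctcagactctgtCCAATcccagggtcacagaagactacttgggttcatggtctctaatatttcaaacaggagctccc

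CD74, HLA-DMA and HLA-DOA held the X-box-like word followed by a Y-box core with 22, 28 and 28 bases between them. HLA-DMB held both words farther apart. HLA-DPA1 held only the first within 250 bases, and HLA-DPB1 only the second. Only exact words were searched, so a missing match is not a missing box. Words that differ by a single base are unmarked, such as atagg upstream of HLA-DPA1 and cctagtgag upstream of HLA-DPB1. Over all 35116 RefSeq windows of 250 upstream bases, 6.88% held the X-box-like word on the strand of the gene, 32.0% the Y-box core on either strand, and 0.310% the first followed by the second at a distance of 10 to 40 bases. Both words and the distance were set after the members' sequences were seen, so the shares describe the windows only, and a match is not a bound site. From the HLA-DPA1 start shown, HLA-DPA1 and HLA-DPB1 are transcribed away from each other, with start sites 2341 bases apart. The other HLA-DPA1 start, at chr6:33080748, lies on the far side of the HLA-DPB1 start at chr6:33075990. Transcription from it runs toward HLA-DPB1.

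**Figure D1:**
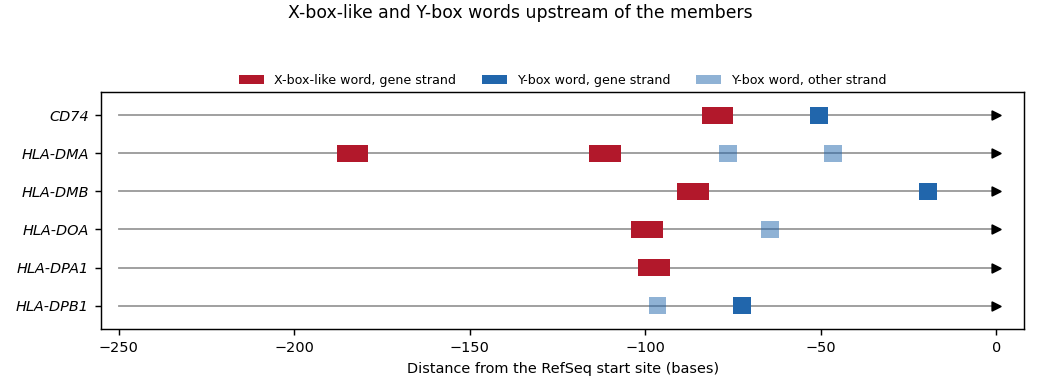
Positions of the X-box-like word (red) and the Y-box core (blue, paler where it lies on the other strand) in the 250 bases upstream of the RefSeq start sites (arrowheads) of 6 members. In CD74, HLA-DMA and HLA-DOA a Y-box core follows the X-box-like word at 22 to 28 bases. HLA-DPA1 is drawn for the start nearer to HLA-DPB1.

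The class II genes and CD74 were not at the same order of level in these cells. In OS-LM1, where CD74 was highest, CD74 stood at 128 and 163 TPM and HLA-DMA at 6.23 and 7.09 TPM, while HLA-DMB, HLA-DOA, HLA-DPA1 and CIITA were all under 1 TPM. In 786-O, CD74 was at 29.7 and 25.2 TPM, HLA-DMA at 4.1 and 3.98 TPM and HLA-DPA1 at 2.01 and 2.01 TPM. HLA-DRA, the alpha chain of the most widely used class II molecule, had 2 counts in SC replicate 2 and 0 in the other 21 libraries. A count of 0 allows up to 0.0385 CPM in 786-O, 0.0345 CPM in 786-M1A and 0.0725 CPM in OS-LM1, where the limit of 3 counts is taken over the group and covers counting error only. Of 9 further class II genes and pseudogenes in the files, HLA-DRB5, HLA-DQA1, HLA-DQA2 and HLA-DPB2 had 0 counts in all libraries, and HLA-DOB, the beta chain of HLA-DO, was the one with 10 or more counts in a library.

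**Figure D2:**
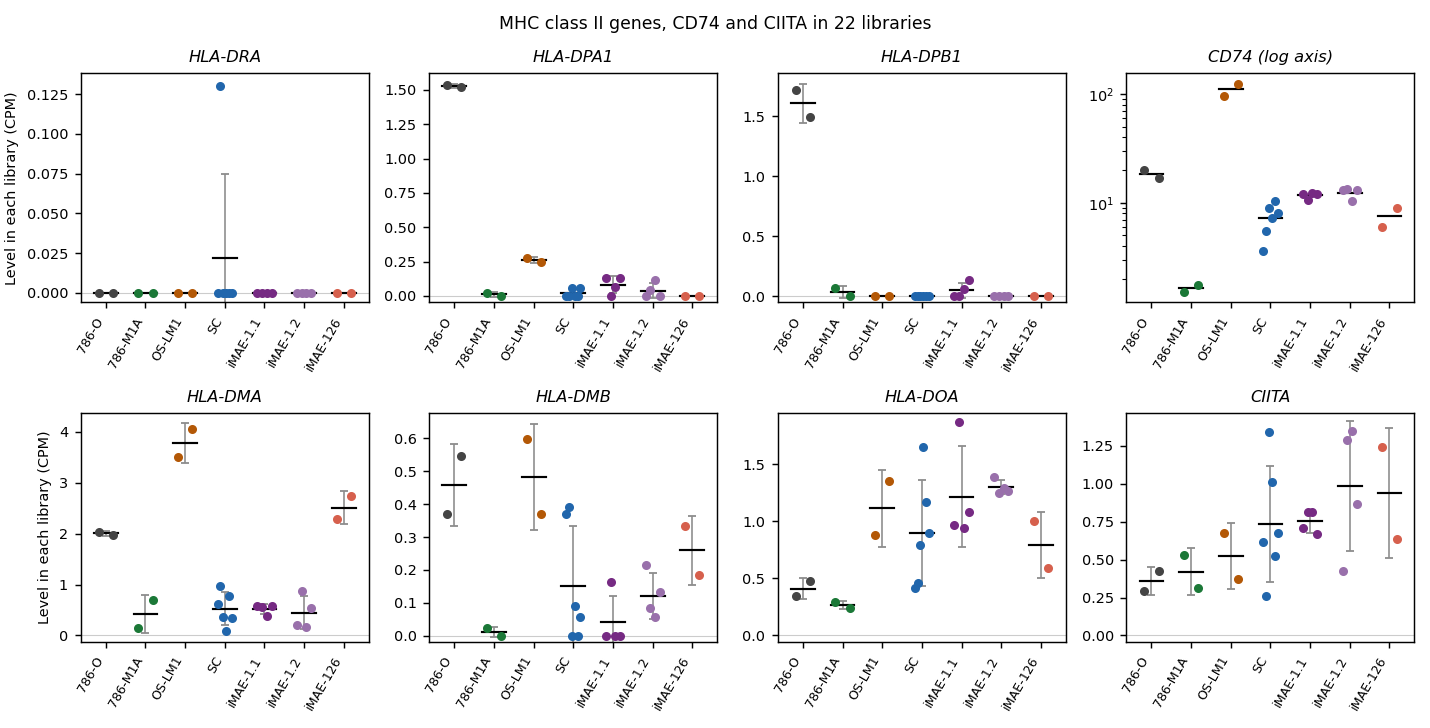
Level of each gene in CPM (vertical axes, log scale for CD74 only) in every library of the 7 groups. Points are libraries, black bars group means and grey bars 1 SD (not drawn for CD74). HLA-DPA1 and HLA-DPB1 were above 1 CPM only in the 786-O libraries, CD74 was lowest in 786-M1A and highest in OS-LM1, and HLA-DMA was above 1 CPM in 786-O, OS-LM1 and iMAE-126.

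The first comparison asks how the metastatic derivative 786-M1A differs from its parent 786-O. Of the 8 members, 5 fell: both HLA-DP chains, CD74, and both HLA-DM chains. HLA-DOA and CIITA were not called and HLA-DRA was not tested. By edgeR's quasi-likelihood test at an adjusted p under 0.05, 31.0% of all 16354 genes tested were called, 16.3% as lower and 14.7% as higher. HLA-DPB1 passed the filter on low counts only through 786-O, and HLA-DPA1 and HLA-DMB only through 786-O and OS-LM1, so their number among the tested genes carries no weight of its own.

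HLA-DPA1 was at 1.54 and 1.52 CPM in 786-O and at 0.0222 and 0 CPM in 786-M1A. These are 119 counts against 1, a level 133-fold higher in 786-O (exact 95% interval for counting error 23.4 to 5290; adjusted p = 0.00018, edgeR). HLA-DPB1 had 125 counts against 3, a ratio of 46.5 with an interval of 15.6 to 229 (adjusted p = 0.00134). The counts of both genes were fractional in 786-O, where RSEM split reads between genes, and their sum was whole, 123 and 121 counts. Taken as a pair they had 244 counts in 786-O and 4 in 786-M1A, all 4 in replicate 1, a ratio of 68.1 with an interval of 26.3 to 252.

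CD74 lay at 19.9 and 16.8 CPM in 786-O and at 1.51 and 1.74 CPM in 786-M1A. The groups were far apart, and CD74 fell by 3.54 on the log2 scale (SE 0.185, adjusted p = 8.51e-06), about 11.6-fold. HLA-DMA was at 2.04 and 1.97 CPM in 786-O and at 0.155 and 0.692 CPM in 786-M1A, so the derivative's own libraries differed from each other. It fell by 2.29 (SE 0.498, adjusted p = 0.00971), by 1.56 without 786-M1A replicate 1 and by 3.69 without 786-M1A replicate 2. The call was lost without 786-O replicate 1 (adjusted p = 0.0549) or replicate 2 (0.0508). HLA-DMB had 36 counts in 786-O, at 0.371 and 0.547 CPM, and 1 count in 786-M1A, a ratio of 40.2 with an interval of 6.77 to 1631 (adjusted p = 0.0038).

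HLA-DOA was at 0.344 and 0.473 CPM in 786-O and 0.288 and 0.239 CPM in 786-M1A. It did not overlap between these lines, and the share of all genes without overlap was not computed. Its log2 difference of −0.66 (SE 0.47) was not called (adjusted p = 0.32). CIITA, the activator, was at 0.291 and 0.423 CPM in 786-O and 0.532 and 0.31 CPM in 786-M1A, and the groups overlapped. Its log2 difference was 0.20 (SE 0.509, adjusted p = 0.799), and it rests on 28 counts in 786-O and 37 in 786-M1A. HLA-DOA and CIITA had fractional counts in 22 and 21 of the 22 libraries, and the gene that shares their reads was not identified.

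OS-LM1 against 786-M1A compares both metastatic lines. Here 5 members were higher and 0 lower: CD74, HLA-DMA, HLA-DMB, HLA-DOA and HLA-DPA1. In 786-M1A, 0 libraries reached the level of the low-count filter for HLA-DPA1 and HLA-DMB, and 1 of 2 for HLA-DMA and HLA-DOA. All of these except CD74 thus passed through OS-LM1 and 786-O, so the number called higher carries no weight of its own. These lines differed broadly, with 68.7% of 16354 genes called, 34.4% as higher and 34.3% as lower. CD74 was at 96.8 and 125 CPM in OS-LM1, a log2 difference of 6.10 (SE 0.192, adjusted p = 1.46e-07). HLA-DMA was at 3.5 and 4.06 CPM, higher by 3.17 (SE 0.501, adjusted p = 0.000668), or by 2.43 and 4.56 without 786-M1A replicate 1 and 2. HLA-DOA was at 0.875 and 1.35 CPM, higher by 2.04 (SE 0.456, adjusted p = 0.00419). No library of OS-LM1 overlapped 786-M1A for any of the 3. With 2 libraries in each group, and the share of all genes without overlap not computed, this says nothing particular about the members.

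HLA-DMB had 21 counts in OS-LM1, at 0.597 and 0.369 CPM, against 1, which is 44.1-fold more with an interval of 7.1 to 1825 (adjusted p = 0.00147). HLA-DPA1 had 11 counts against 1, a ratio of 23.1 with an interval of 3.36 to 995 (adjusted p = 0.0035). Its partner did not follow: HLA-DPB1 had 0 counts in OS-LM1, which allows up to 0.0725 CPM, and 3 in 786-M1A. CIITA stood at 0.676 and 0.369 CPM, again overlapping 786-M1A, with a log2 difference of 0.36 (SE 0.528, adjusted p = 0.558).

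Set against 786-O, OS-LM1 had CD74 and HLA-DOA higher and both HLA-DP chains lower, 4 of 8 members called where 63.6% of all genes were, 30.4% as higher and 33.3% as lower. CD74 was higher by 2.56 (SE 0.153, adjusted p = 4.47e-06), which is 5.91-fold. HLA-DPA1 was at 0.278 and 0.246 CPM in OS-LM1 and fell by 2.54 (SE 0.463, adjusted p = 0.00167). HLA-DPB1 had 125 counts in 786-O and 0 in OS-LM1, which is 22.1-fold lower if OS-LM1 is set to the limit of 3 counts. The exact 95% interval for counting error reached down to 17.7-fold (adjusted p = 0.000737, edgeR). HLA-DPB1 passed the filter only through 786-O, so its call as lower carries little weight. HLA-DOA was higher by 1.38 (SE 0.438, adjusted p = 0.0237), which did not pass when 786-O replicate 1 (adjusted p = 0.125), 786-O replicate 2 (0.0602) or OS-LM1 replicate 2 (0.19) was left out. The HLA-DM chains were not called, HLA-DMA at 0.88 (SE 0.431, adjusted p = 0.106, and 0.0155 in a fit of these 2 lines alone) and HLA-DMB at 0.08 (SE 0.546, adjusted p = 0.904). The 3 comparisons of the lines share their libraries, so they are not separate evidence.

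**Figure D3:**
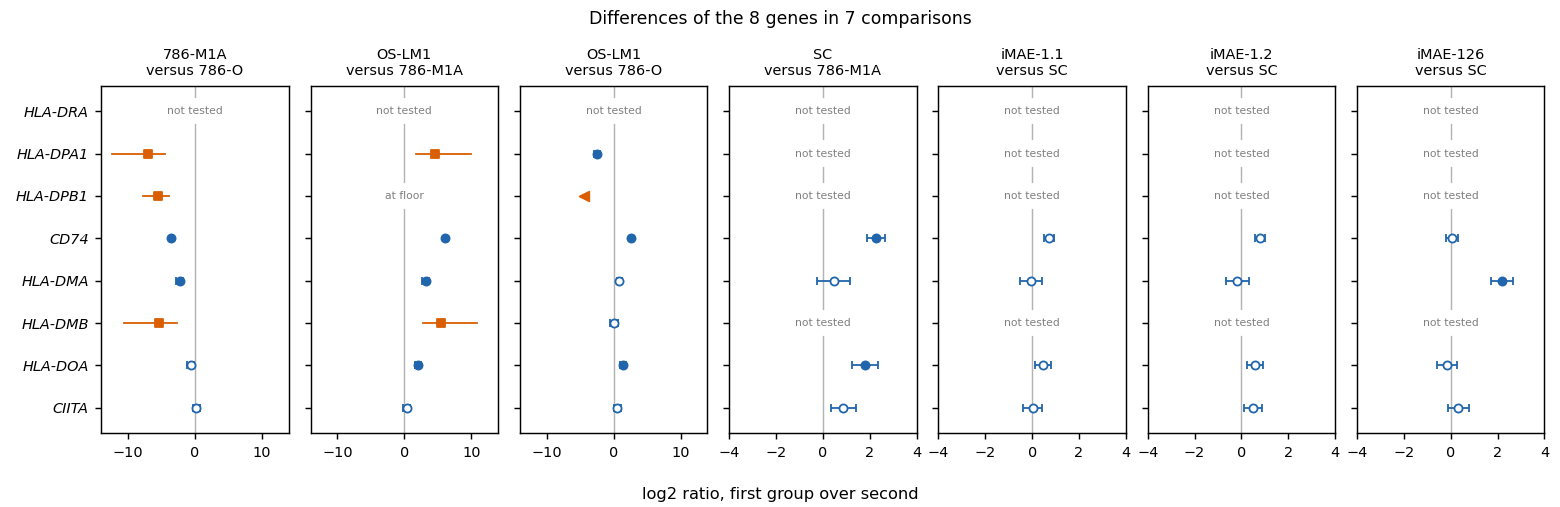
Log2 ratio of the first group over the second (horizontal axes, wider in the 3 panels of the lines) for the 8 genes in 7 comparisons. Blue points are edgeR estimates with 1 SE, filled where the adjusted p is under 0.05. Orange squares are count ratios with 95% counting intervals where a group has 1 to 3 counts. The orange triangle is HLA-DPB1 with its 0 counts in OS-LM1 set to the limit of 3 counts. CIITA is an open point near 0 in each of the 3 comparisons of the lines, where CD74 is filled.

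Of the factors that bind class II promoters, all 12 were tested, and 1 rose and 1 fell in 786-M1A against 786-O, with a median log2 difference of −0.04 beside −0.02 over all genes, where 14.7% of genes were called higher and 16.3% lower. RFX5, the DNA-binding subunit of the RFX complex, was at 53.1 ± 1.79 CPM (SD, n = 2) in 786-M1A and 78.5 ± 4.23 CPM in 786-O, and fell by 0.60 (adjusted p = 0.0041). RFXAP, its partner, rose by 0.60 (adjusted p = 0.00821). Neither RFX gene passed when either 786-M1A replicate 2 or 786-O replicate 2 was left out (adjusted p from 0.0502 to 0.0888), and that of RFXAP also without 786-O replicate 1 (0.0903). In OS-LM1 against 786-M1A, where 34.4% of all genes were called higher and 34.3% lower, 3 of the 12 rose and 6 fell, with RFXAP higher by 0.84 (adjusted p = 0.000457) and the coactivator CARM1 lower by 1.18 on the log2 scale.

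Of 19 genes of the interferon gamma pathway, 14 were tested, and 1 rose and 4 fell in 786-M1A, beside 14.7% and 16.3% of all genes. GBP2, a GTPase induced by interferon, was at 1.79 ± 0.336 CPM in 786-M1A and 8.46 ± 0.956 CPM in 786-O, and fell by 2.28 (adjusted p = 0.000122). In OS-LM1 against 786-M1A, 5 rose and 5 fell, beside 34.4% and 34.3% of all genes. GBP2 was higher by 2.49 (adjusted p = 2.18e-05) and its relative GBP1 fell by 1.63 (adjusted p = 9.73e-06).

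All 19 genes of endosomal antigen processing were tested, and 4 rose and 6 fell in 786-M1A, beside 14.7% and 16.3% of all genes. CTSS, the protease that trims CD74, was at 8.28 ± 0.37 CPM in 786-M1A and 16.1 ± 1.73 CPM in 786-O, and fell by 1.00 (adjusted p = 0.000858). The cathepsin CTSH fell by 1.40 (adjusted p = 8.92e-05) and the legumain gene LGMN by 1.12 (adjusted p = 0.000199), while the cathepsin CTSZ rose by 1.13 (adjusted p = 9.55e-05). In OS-LM1 CTSS stood at 46.7 ± 4.65 CPM, higher than in 786-M1A by 2.51 (adjusted p = 2e-06) and also higher than in 786-O (adjusted p = 2.84e-05). CD44, the signalling partner of surface CD74, went the other way: it was at 1172 ± 65.7 CPM in 786-M1A, 382 ± 16.8 CPM in 786-O and 323 ± 69.1 CPM in OS-LM1. It was called as higher in 786-M1A than in either line, by 1.58 (adjusted p = 0.000185) over 786-O and with a difference of −1.85 (adjusted p = 2.18e-05) for OS-LM1.

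Some markers of immune cells moved with the higher CD74 of OS-LM1. Of 7 such markers tested, 5 were called higher than in 786-M1A and 1 lower, beside 34.4% and 34.3% of all genes. Among the lines, CD79B and ITGAM reached the filter's level of 0.245 CPM in both libraries only in OS-LM1, where they are high. The number called higher therefore carries no weight of its own. The summed level of all 20 markers was 10.7 and 15.6 CPM in OS-LM1, 6.3 CPM in both 786-M1A libraries and 7.21 and 8.69 CPM in 786-O. Among those called, LAPTM5 was at 2.03 and 2.21 CPM, ITGAX at 1.83 and 3.32 CPM and ITGAM at 1.19 and 2.15 CPM in OS-LM1. LYZ was at 3.74 and 6.52 CPM there, against 2.6 to 2.91 CPM in 786-M1A. The B cell genes CD79A and CD79B had 12 and 16 counts in OS-LM1, against 5 and 0 in 786-M1A. PTPRC was at 0.119 and 0.123 CPM in OS-LM1, and FCER1A, TYROBP and CD3E were at 0. CSF1R went the other way, at 0.369 to 0.597 CPM in OS-LM1 against 1.72 to 2.28 CPM in 786-M1A and 2.11 to 3.36 CPM in 786-O. CD14 was at 0.119 to 0.246 CPM in OS-LM1, 0.111 to 0.143 CPM in 786-M1A and 0.291 to 0.373 CPM in 786-O. The part of these markers in the difference was not tested. Of class I genes, HLA-F was higher in OS-LM1 than in 786-M1A by 1.97 (adjusted p = 1.18e-05), and HLA-B was lower (log2 difference −2.42, adjusted p = 8.36e-07).

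The comparison of SC with 786-M1A shows the cells that carry the CRISPRi system and a non-targeting guide beside cells for which the labels name no such system. CD74 was higher in SC, with 6 of 6 SC libraries above both of 786-M1A, and the share of all genes that separate so was not computed. HLA-DOA was the other of the 2 members called, and 53.0% of 14769 genes were called. HLA-DOA, HLA-DMA and CIITA passed the filter on low counts only through SC, so a call of HLA-DOA as higher carries little weight. HLA-DMA and CIITA were not called, and HLA-DRA, HLA-DPA1, HLA-DPB1 and HLA-DMB did not pass the filter.

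CD74 ran from 3.63 through a median of 7.67 to 10.3 CPM in SC against 1.51 and 1.74 CPM in 786-M1A. The log2 difference was 2.26 (SE 0.39, adjusted p = 0.003), and it was called in all 8 fits that left out 1 library. The level depended on the library set: it was 3.63 and 5.54 CPM in set A and 7.25 to 10.3 CPM in set B. With SC replicates 1 and 2 alone the difference was 1.58 (adjusted p = 0.00115), and with replicates 3 to 6 alone 2.47 (adjusted p = 3.62e-14), in fits that called 51.2% and 79.1% of all genes. The average length of the genes behind the reads was 3929 and 3982 bases in 786-M1A, above every SC library, and the summed level of the 20 immune markers was 9.78 to 12.5 CPM in SC against 6.3 CPM in 786-M1A. Most of that sum in SC was LYZ, at 5.35 to 8.99 CPM. The part of either in these differences was not tested.

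HLA-DOA was at 0.412 and 0.456 CPM in SC set A, 0.792 to 1.65 CPM in SC set B and 0.288 and 0.239 CPM in 786-M1A. Its log2 difference of 1.80 (SE 0.565, adjusted p = 0.0256) was lost without 786-M1A replicate 1 (adjusted p = 0.116), 786-M1A replicate 2 (0.157) or SC replicate 5 (0.0503). It was 0.80 (adjusted p = 0.302) with set A alone, and limma on log2(TPM + 1) and log2(TPM + 0.1) did not call it (adjusted p = 0.0963 and 0.0526). HLA-DMB showed the opposite pattern over the sets. It was at 0.371 and 0.391 CPM in SC set A and at 0 to 0.0918 CPM in set B, beside 1 count in 786-M1A. SC set A had 15 counts against 1, a ratio of 33 (interval 5.07 to 1387). A fit with set A alone called HLA-DMB (adjusted p = 0.00489), but it entered that fit only through SC set A, where it is high, so the call is no support.

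HLA-DMA ran from 0.0918 to 0.978 CPM in SC and spanned both 786-M1A values (log2 difference 0.46, SE 0.702, adjusted p = 0.594). CIITA ran from 0.261 to 1.34 CPM in SC, with a log2 difference of 0.88 (SE 0.539, adjusted p = 0.188). CIITA was called with SC replicates 3 to 6 alone, which lay at 0.521 to 1.34 CPM (adjusted p = 0.0209). That fit called 79.1% of all genes, and CIITA passed the main filter only through SC, so this call carries little weight. It was not called with SC replicates 1 and 2 alone (log2 difference 0.23, adjusted p = 0.775). The HLA-DP pair had 2 counts in the 6 SC libraries and 4 in 786-M1A, 2.3-fold more per library total in 786-M1A (95% interval 0.33 to 25.4), so no difference was detectable at this depth.

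Around these genes, HLA-DOB, the partner chain of HLA-DOA, was at 1.24 to 2.42 CPM in SC and 0.577 and 0.93 CPM in 786-M1A, higher by 1.48 (SE 0.333, adjusted p = 0.00726). Leaving out 786-M1A replicate 1 ended that call (adjusted p = 0.0774). Of the interferon gamma pathway, 5 of 14 tested genes were higher and 2 lower, beside 27.8% and 25.3% of all genes, with GBP2 at 1.61 (adjusted p = 0.00206) and IRF1 at 0.79 (adjusted p = 0.00174). Of endosomal antigen processing 6 of 18 were higher and 6 lower. CD44 fell by 1.34 (adjusted p = 0.00105).

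The iMAE guides were then compared with SC to ask whether repressing the elements they bind moved these genes. HLA-DMA was higher with iMAE-126, and no member was called with iMAE-1.1 or iMAE-1.2. CD74 was at the same time higher in each iMAE-1.1 and iMAE-1.2 library than in any SC library, without passing the test. The lowest of these libraries, at 10.4 CPM, lay beside the highest of SC, at 10.3 CPM. The share of all genes that separate in this way was not computed. In each comparison 4 members were tested, CD74, HLA-DMA, HLA-DOA and CIITA.

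With iMAE-126, HLA-DMA was the 1 member called, where 15.5% of 15254 genes were called, 6.21% as higher and 9.24% as lower. It was at 2.28 and 2.74 CPM in iMAE-126 and ran from 0.0918 through a median of 0.492 to 0.978 CPM in SC. The groups did not overlap, and the share of all genes without overlap was not computed. The log2 difference was 2.21 (SE 0.469, adjusted p = 0.00628), about 4.61-fold. Both iMAE-126 libraries belong to set A, where SC was at 0.618 and 0.978 CPM. When the fit included the library set, the difference was 1.68 (SE 0.544, adjusted p = 0.0403), and against the set A libraries of SC alone 1.68 (SE 0.515, adjusted p = 0.0483). The call was lost without iMAE-126 replicate 1 (adjusted p = 0.0587) or replicate 2 (0.101), where the remaining library is assumed to vary like those of the other groups.

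The partner chain HLA-DMB was at 0.333 and 0.186 CPM in iMAE-126 and 0.371 and 0.391 CPM in the SC libraries of set A, so it was not higher with its neighbour gene HLA-DMA. CD74 was at 5.99 and 8.99 CPM in iMAE-126, inside the range of all SC libraries (log2 difference 0.06, SE 0.269, adjusted p = 0.908), but above both SC libraries of set A. With library set as a term CD74 was called, at 0.75 (SE 0.22, adjusted p = 0.026), beside 16.7% of all genes called in that fit. Against SC of set A alone it was also called, at 0.75 (adjusted p = 0.0472), where 11.4% of all genes were. HLA-DOA, at 0.998 and 0.585 CPM, and CIITA, at 1.24 and 0.638 CPM, were not called (log2 differences −0.16 with SE 0.443, adjusted p = 0.836, and 0.33 with SE 0.462, adjusted p = 0.662).

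**Figure D4:**
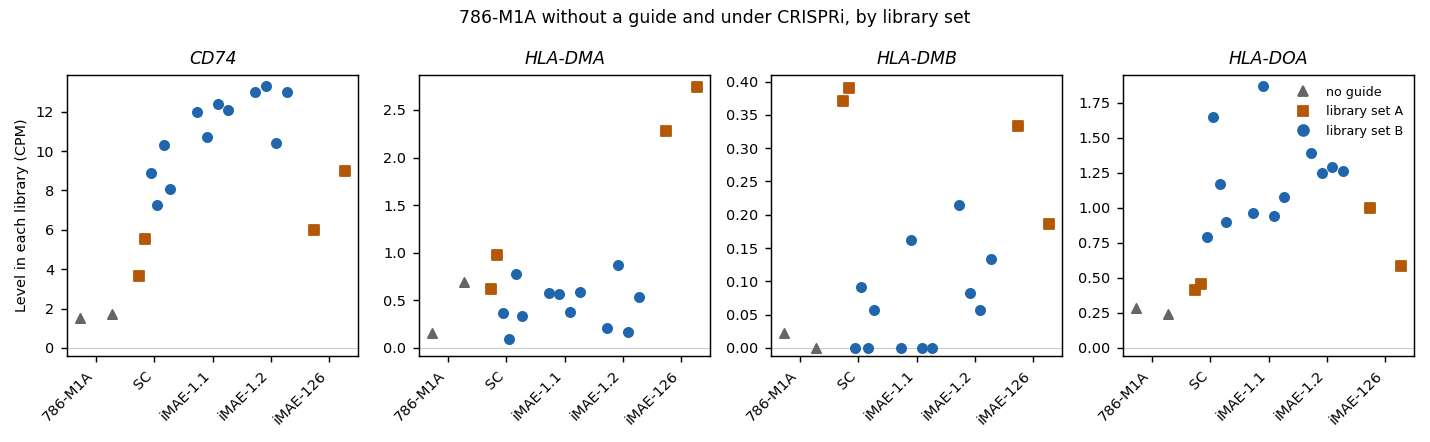
Level in CPM of CD74, HLA-DMA, HLA-DMB and HLA-DOA in 786-M1A without a guide (triangles) and in the 16 CRISPRi libraries, with set A as squares and set B as circles. Points are single libraries. CD74 and HLA-DOA are lower and HLA-DMB higher in the set A libraries of SC than in its set B libraries, and HLA-DMA is above 2 CPM only in iMAE-126.

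CD74 was at 12, 10.7, 12.4 and 12.1 CPM in the iMAE-1.1 libraries and at 13, 13.3, 10.4 and 13 CPM in those of iMAE-1.2. All 8 values were above the highest SC library, though iMAE-1.2 replicate 3 and SC replicate 5 lay close together. The log2 difference was 0.70 (SE 0.214, adjusted p = 0.146) for iMAE-1.1 and 0.78 (SE 0.214, adjusted p = 0.0888) for iMAE-1.2. By edgeR 0 members were called in either comparison, 1 in each (CD74) had an unadjusted p under 0.05, and DESeq2 called CD74 in iMAE-1.2 (adjusted p = 0.0215) but not in iMAE-1.1 (adjusted p = 0.0504). Few genes were called at all, 0.452% of 15254 for iMAE-1.1 (0.190% higher, 0.262% lower) and 0.721% for iMAE-1.2 (0.354% higher, 0.367% lower). All libraries of these guides are in set B, and with library set as a term the differences in CD74 were 0.45 (adjusted p = 0.165) and 0.52 (adjusted p = 0.0765), in fits that called 1.79% and 2.73% of all genes. The summed level of the 20 immune markers was 13.9 to 14.7 CPM in iMAE-1.1, 11.2 to 20.3 CPM in iMAE-1.2 and 9.78 to 12.5 CPM in SC. LYZ alone made up most of it, at 8.65 to 9.97, 8.27 to 12.9 and 5.35 to 8.99 CPM, and its part was not tested.

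HLA-DOA ran from 0.942 to 1.87 CPM in iMAE-1.1 and from 1.25 to 1.39 CPM in iMAE-1.2, both overlapping the set B libraries of SC. The log2 differences were 0.46 (SE 0.355, adjusted p = 0.484) and 0.57 (SE 0.353, adjusted p = 0.353). HLA-DMA was at 0.377 to 0.582 CPM in iMAE-1.1 and 0.169 to 0.873 CPM in iMAE-1.2, within the range of SC, with differences of −0.04 (SE 0.478, adjusted p = 0.972) and −0.17 (SE 0.485, adjusted p = 0.861). CIITA ran from 0.672 to 0.816 CPM and from 0.428 to 1.35 CPM, with differences of 0.03 (SE 0.4, adjusted p = 0.972) and 0.48 (SE 0.384, adjusted p = 0.468).

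The members under the filter were compared by 2-sided exact permutation tests of CPM over libraries, with adjustment over all 10 tests. With iMAE-126 the smallest p that the 28 splits can give, 0.0357, cannot pass that adjustment alone, and the tests of HLA-DRA rest on 1 library with counts, so neither kind could make a call. The lowest p, for HLA-DPA1 in iMAE-1.1 (6 counts against 2 in SC), was 0.0619, with an adjusted p of 0.619. The HLA-DP pair had 10 counts under the guide iMAE-1.1, 6 of them in replicate 4, and 2 in SC. Per library total the ratio was 7.56 (95% interval 1.61 to 71), which covers counting error only and not the spread between libraries. The pair had 3 counts under iMAE-1.2, a ratio of 2.27 to SC (0.26 to 27.1). It had 0 under iMAE-126, which allows up to 0.0512 CPM. HLA-DMB had 2, 7 and 14 counts in these groups and 17 in SC. Its mean levels were 0.0405, 0.122 and 0.259 CPM, and 0.152 CPM in SC.

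Among the other genes of the pathway, 0 of 12 promoter factors were called with iMAE-1.1 or iMAE-1.2. Only 0.452% and 0.721% of all genes were called there, so a count of 0 says nothing particular about these factors. TAP1, which carries peptides to class I molecules, fell by 0.55 (adjusted p = 0.0345) with iMAE-1.1 and by 0.56 (adjusted p = 0.0321) with iMAE-1.2. The call for TAP1 ended without SC replicate 1 or 2 or iMAE-1.1 replicate 1, 2 or 3 in the first comparison (up to 0.132), and without SC replicate 2 or any iMAE-1.2 library in the second (up to 0.123). With iMAE-126, 6 of 18 genes of endosomal antigen processing were higher and 0 lower, and 7 of 18 genes of class I presentation were higher and 1 lower, beside 6.21% and 9.24% of all genes. These counts are from the fit without library set, where iMAE-126 is all of set A and SC is of both sets. They were not taken with library set as a term, so the part of the set in them was not tested. CTSH was higher by 1.08 (adjusted p = 0.00337) and LGMN by 0.63 (adjusted p = 0.0012), and both were called with library set as a term (adjusted p = 0.00974 and 0.0022). CTSH was lost without iMAE-126 replicate 2 (adjusted p = 0.0685). The interferon-induced GBP2 was higher by 1.08 (adjusted p = 0.00324), and was lost without iMAE-126 replicate 1 (adjusted p = 0.0633).

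Over the 7 groups, CD74 increased in mean level from 786-M1A (1.62 ± 0.165 CPM, n = 2) to SC (7.28 ± 2.4, n = 6), iMAE-126 (7.49 ± 2.12, n = 2), iMAE-1.1 (11.8 ± 0.743, n = 4), iMAE-1.2 (12.4 ± 1.38, n = 4), 786-O (18.4 ± 2.21, n = 2) and OS-LM1 (111 ± 20, n = 2). Neighbours in this order overlapped for SC with iMAE-126 and for iMAE-1.1 with iMAE-1.2, and not for the others. For HLA-DMA, 786-M1A, iMAE-1.2, iMAE-1.1 and SC overlapped at 0.424 to 0.529 CPM on average, below 786-O (2 ± 0.0525), iMAE-126 (2.51 ± 0.324) and OS-LM1 (3.78 ± 0.395), which did not overlap. The order for HLA-DOA was another, with 786-M1A (0.263 ± 0.0352) and 786-O (0.409 ± 0.0907) lowest and iMAE-1.2 (1.3 ± 0.0637) highest. For CIITA each group overlapped its neighbours, from 786-O (0.357 ± 0.093) to iMAE-1.2 (0.983 ± 0.428).

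The genes whose group means ran most like the mean of 5 members were PLEKHG1, KCP, PRRG4, SEMA4D and N4BP2L2, with Pearson correlations of 0.989, 0.985, 0.984, 0.984 and 0.983. The measure was the correlation over the 7 group means of log2(CPM + 1) with the mean of the 5 members that reached 1 CPM in a group, among 12267 genes that reached 5 CPM. Of these members CD74 had the widest range, from 1.62 to 111 CPM, so it weighs most in their mean. All 5 genes named were highest in OS-LM1, as were CD74 and HLA-DMA. HLA-DPA1 and HLA-DPB1 were highest in 786-O and HLA-DOA in iMAE-1.2, so the genes named do not run like each member. With 7 points, of which 5 come from 786-M1A cells, the correlation is a description only. PRRG4, for example, was at 15.6 CPM on average in 786-O, 2.69 CPM in 786-M1A, 30.6 CPM in OS-LM1 and 6.48 CPM in SC.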

How the data were processed

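Cells were grown in RPMI with serum, and stranded libraries of poly(A) RNA were made with dUTP marking, per the labels' protocols. Bowtie2, RSEM and hg19 are named in the submitters' processing notes. The sources used here do not give their versions or the strand setting. The authors' deposited values are RSEM expected counts and TPM per gene, with a gene length, per the file headers.

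The test was edgeR's (4.0.16, R 4.3.3) robust quasi-likelihood fit to whole-number roundings of the expected counts, with TMM factors, genes kept by filterByExpr (minimum count 10), and Benjamini-Hochberg adjustment over all genes tested. The 6 libraries of the lines, SC with 786-M1A, and the 16 CRISPRi libraries were fitted separately, so that groups of a fit share one estimate of spread. An SE is the log2 difference over the square root of F. Count ratios carry exact 95% intervals, and a group at 0 counts takes a floor of 3 counts over the group, both for counting error only. No library repeated another, but SC replicates 4 and 6, and 3 and 5, were closest (mean chi-square per gene 2.24 and 3.03) and may not be independent.

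Each result was also computed with DESeq2 1.42.0, with RLE factors, with the filter removed or raised to 50 counts, and with limma 3.58.1 on log2(TPM + 1) or log2(TPM + 0.1). Further fits had a block for the replicate number, only the groups compared, the library set, or 1 library fewer. The edgeR fit was also run on simulated counts, which had no library sets and no broad change between groups. Its outcome is not reported here and is not used as support. All 8 members are named in every comparison. Of each of the 10 other gene lists, up to 4 called genes per comparison and direction with the largest difference could be named, and any further class II gene with 10 counts in a library. Members, lists and tests were chosen with earlier results of these data known. Tables were made with Python 3.11.15 and pandas 2.3.3, and figures with matplotlib 3.10.9. Some genes of these lists are not reported here.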

Additional observations from a re-analysis of the deposited data

Results flagged for a closer look

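Single libraries stood apart from the rest of their group, by Dixon's test of the gap to the nearest library, in 5 of 23 gene and group pairs with 4 or 6 libraries. Chance gives about 1 in 20 for continuous values, a rate that does not hold for counts of 0 to 2. HLA-DRA and HLA-DMB below are 1 library with 2 counts among libraries at 0, which always meets the test. HLA-DRA was at 0.13 CPM (2 counts) in SC replicate 2 and at 0 in the other SC libraries. In iMAE-1.1, HLA-DMB was at 0.162 CPM in replicate 2 and at 0 in the others, HLA-DOA was highest in replicate 2 at 1.87 CPM, and HLA-DMA was lowest in replicate 3 at 0.377 CPM. CD74 was lowest in iMAE-1.2 replicate 3, at 10.4 CPM.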

How the results depend on the processing

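Of the 8 members, 5 were called in 786-M1A versus 786-O (4 to 5 with a library left out) and 5 in OS-LM1 versus 786-M1A (5 in each such fit, 3 with a minimum count of 50, which tests fewer members). In OS-LM1 versus 786-O 4 were called (3 to 4). In SC versus 786-M1A 2 were called, 1 to 2 with a library left out, and 1 under each of 4 settings: the filter at 50 counts, limma with a pseudocount of 1 TPM or 0.1 TPM, and the replicate block. With SC replicates 3 to 6 alone 3 were called (CD74, HLA-DOA and CIITA), in a fit that called 11543 genes, and with replicates 1 and 2 alone 2 (CD74 and HLA-DMB), in one that called 7708. No member was called in iMAE-1.1 versus SC under any alternative, and in iMAE-1.2 versus SC 1 was called by DESeq2 and 0 in each fit with a library left out. In iMAE-126 versus SC the number was 1, then 0 with a minimum count of 50 or the replicate block, 0 to 1 with a library left out, and 2 with library set as a term or with SC of the same set. No called member changed direction. With TPM in place of CPM the lowest adjusted p of the permutation tests was 0.667.

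A pairing of samples by replicate number was not seen in every comparison. In 786-M1A with 786-O each library correlated best with its own number. With 2 libraries in a group their deviations mirror each other, so the check cannot show that pairing is absent. Deviations of same-numbered libraries correlated at 0.22 in 786-M1A with 786-O, −0.34 in OS-LM1 with 786-M1A and −0.10 in OS-LM1 with 786-O, and in the CRISPRi comparisons not every pair exceeded 0.1, nor did each library correlate best with its own number. With the replicate block HLA-DOA in SC versus 786-M1A (0.80, adjusted p = 0.36) and HLA-DMA in iMAE-126 (1.91, adjusted p = 0.0997) were not called. With OS-LM1 numbers crossed, an alternative added after seeing the data, 5 members were called.

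Over all genes, the number called in 786-M1A versus 786-O was 5064, 8733 with the compared groups alone and 2259 to 2551 with a library left out. In SC versus 786-M1A it was 7832, and 3035 or 1999 without 786-M1A replicate 1 or 2. For iMAE-1.1 it was 69, and 434 by DESeq2, 2 with the replicate block, 16 with the compared groups alone, 273 with library set as a term, 236 with SC of the same set and 16 to 33 without 1 of its libraries. For iMAE-1.2 it was 110, and 665, 2, 17, 417 and 383 under the same settings, 56 without the filter, and 11 to 59 without 1 of its libraries or SC replicate 1, 2, 3, 4 or 6. For iMAE-126 it was 2357, and 1548 by limma with 0.1 TPM, 61 with the block, 892 with the compared groups alone, 3753, 3851 or 1554 without SC replicate 1, 2 or 3, and 151 or 161 without iMAE-126 replicate 1 or 2. Apart from CD74, the members have few counts, which limits what can be seen.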
